A study of Mus musculus with 6 samples.

Results

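The microRNAs described here are those of 8 mouse hairpins known from the blood lineages: miR-223, miR-142a, miR-150, miR-126a, miR-144, miR-451a, miR-486a and miR-486b. All arms of these hairpins were taken by name, which gave 15 of the 1915 distinct mature names in the table. miR-486a-5p and miR-486b-5p differed by at most 2 reads in any library, so they share their reads and were counted once, as miR-486a-5p, which leaves 14 measurements. Small RNAs came from iBN cells, a mouse suspension line that the labels call granulocyte-macrophage progenitors and that holds an inducible form of PU.1, a transcription factor of myeloid cells. All cells grew with GM-CSF and fetal bovine serum. The uninduced cells (n = 3 libraries) had no doxycycline, and the induced cells (n = 3 libraries) had 1000 ng/ml doxycycline for 72 hours. The labels do not name a clone, and no doxycycline-treated cells without the inducible gene were analysed here. Each group holds trials 1, 2 and 3, which the labels do not describe as separate cultures, and a p-value here reflects only how much these libraries vary, possibly for technical reasons.

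A microRNA is cut from a hairpin as a short duplex whose 5p and 3p strands can both be loaded into an Argonaute protein, and bases 2 to 8 of the loaded strand, the seed, choose its targets. miR-223 is known as the microRNA of granulocytes and monocytes, miR-142 as shared by all blood cells, miR-150 as typical of mature lymphocytes, and miR-126 as typical of stem cells, megakaryocytes and endothelium. miR-144 and miR-451a are made from a shared transcript in red cell precursors, and miR-486 is abundant in red cells and muscle. miR-451a is unusual in that Argonaute 2, not Dicer, cuts its precursor.

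The mature sequences, from RefSeq on GRCm38.p6 and read 5′ to 3′ with the seed in capitals, show which strands are compared below. Of the 15 members 9 had an entry; miR-126a-5p, miR-150-5p and the arms of miR-486a and miR-486b are named only.
miR-223-3p: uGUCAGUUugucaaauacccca
miR-223-5p: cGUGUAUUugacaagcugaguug
miR-142a-5p: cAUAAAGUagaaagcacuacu
miR-142a-3p: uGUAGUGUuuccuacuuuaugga
miR-126a-3p: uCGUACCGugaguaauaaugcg
miR-150-3p: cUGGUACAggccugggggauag
miR-144-3p: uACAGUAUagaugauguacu
miR-144-5p: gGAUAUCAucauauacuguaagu
miR-451a: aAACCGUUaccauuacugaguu
The 9 members carry 9 different seeds, and none of these seeds occurs under another name among the 1679 mature names of the sequence table. In the miR-223 hairpin (GRCm38.p6, chrX:96242817-96242926, plus strand, 110 bases), shown because the balance of its arms set the trials apart, capitals mark the mature arms, 5p at positions 26 to 48 and 3p at 68 to 89.
miR-223 hairpin: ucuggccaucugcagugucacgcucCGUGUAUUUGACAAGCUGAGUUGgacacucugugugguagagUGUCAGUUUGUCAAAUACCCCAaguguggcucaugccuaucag

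In the annotation of GRCm38, the assembly also called mm10, the miR-223 hairpin overlaps an exon of the noncoding gene F630028O10Rik. The miR-142a hairpin (chr11:87756864-87756927) lies in an intron of the noncoding host gene Mir142hg. The miR-126a hairpin (chr2:26591357-26591429) lies in Egfl7, a gene of endothelial cells, where it overlaps an exon of an annotated transcript. The hairpins of miR-144 (chr11:78073005-78073070) and miR-451a (chr11:78073170-78073241) lie 99 bases apart on the same strand and in no other annotated gene, next to Eral1. The miR-150 hairpin (chr7:45121757-45121821) is also outside other genes, and miR-486a (chr8:23142555-23142682) lies in an intron of Ank1, a gene of the red cell membrane skeleton.

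With 1 entry kept per mature name, the libraries held 8697384 to 13946613 reads. A count of 0 reads in a single library still leaves room for 0.215 to 0.345 CPM, scaled by depth alone. The CPM levels per library and their means below also have TMM factors applied. Values pooled over all libraries for miR-144-3p and miR-451a do not. The limit for 0 reads and the count intervals below cover counting error only, as no molecular identifiers are described. Of 6 marker lists of other cell types, those for liver (1 of 2 markers with any read) and muscle (2 of 4) summed to at most 0.224 CPM in any library. Of these lists miR-122-3p, miR-206-3p and miR-208a-3p were at 0 reads, and miR-122-5p, miR-1a-3p and miR-133b-3p had reads. Neural (2 of 3) and embryonic stem markers (2 of 6) reached at most 3.94 and 0.91 CPM. Stromal markers (3 of 4) summed to 162 to 201 CPM uninduced and 110 to 168 CPM induced, and epithelial ones (7 of 7) to 32.2 to 39.8 and 81.1 to 101 CPM. The part of those cell types in the values below was not tested. In bulk RNA, fewer cells of a type and less RNA per cell cannot be told apart.

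The profile was that of miR-142a and miR-223, with miR-126a, miR-486 and miR-150 far below them and the miR-144 and miR-451a transcript at the limit of detection. A read covers a whole small RNA and not a fragment of a longer one, so levels of different microRNAs are compared here as CPM without a length correction. Copies made by PCR cannot be told from separate molecules, and ligation efficiency differs between sequences. mmu-miR-142a-5p (the table writes each name with the mouse prefix mmu) averaged 62458 CPM over the 6 libraries and was the 5th most abundant of all microRNAs by mean CPM. miR-142a-3p followed with 10421 CPM, miR-223-3p with 6038 CPM, miR-223-5p with 1425 CPM, miR-126a-5p with 640 CPM and miR-126a-3p with 76.1 CPM. From miR-142a-5p to miR-126a-3p, and on to miR-486a-5p, every neighbour in this order was lower in all 6 libraries and the ranges over the libraries did not overlap. The closest were miR-142a-3p, whose lowest library had 8713 CPM, and miR-223-3p, whose highest had 8489 CPM. miR-486a-5p (34.4 CPM) and miR-150-5p (34.1 CPM) overlapped and cannot be ordered.

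**Figure D1:**
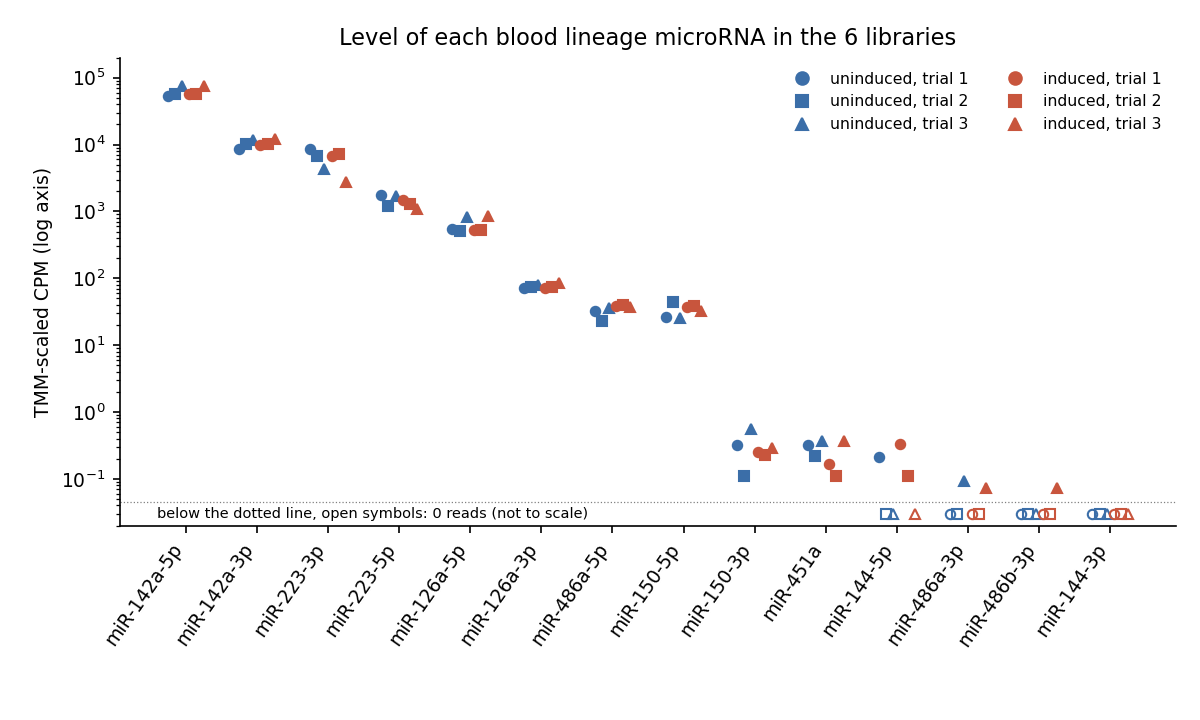
TMM-scaled CPM (log axis) of the 14 measurements in each of the 6 libraries, 1 symbol per library, with libraries of 0 reads as open symbols under the dotted line. The arms of miR-142a and miR-223 lie above 1000 CPM, while miR-150-3p, miR-451a and both arms of miR-144 lie below 1 CPM.

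The erythroid pair had very few reads. miR-144-3p had 0 reads in all 6 libraries together, which allows up to 0.047 CPM. The opposite strand of the same hairpin, miR-144-5p, had 7 reads in all, 2 in the uninduced library of trial 1, 4 in the induced library of trial 1 and 1 in the induced library of trial 2. miR-451a, made from the same transcript, had 3, 2 and 4 reads in the uninduced and 2, 1 and 5 reads in the induced libraries of trials 1, 2 and 3. Over all libraries this is 0.27 CPM (95% exact interval 0.15 to 0.43), and the ratio of induced to uninduced reads per total was 0.76 (95% exact interval 0.26 to 2.23), so no difference was detectable at this depth. With miR-144-3p at 0, no ratio of miR-451a to miR-144-3p was formed. miR-486a-5p, the other red cell microRNA, was well above this pair, with 2221 reads in all, and its levels are given by library below. At these read numbers the data place no erythroid member except miR-486a-5p above 1 CPM in any library.

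Of the 15 members, 9 names (8 measurements) passed edgeR's filter on low counts and were tested for induction among 525 microRNAs. The other 6, miR-144-3p, miR-144-5p, miR-150-3p, miR-451a, miR-486a-3p and miR-486b-3p, had 0 to 19 reads in all and were not tested. At a Benjamini-Hochberg adjusted p of 0.05, edgeR's quasi-likelihood F test passed 0 of the 8, against 6.1% of all tested microRNAs, and 0 of the 8 reached an unadjusted p under 0.05, against 20.8%. With the trial as a block, edgeR again passed 0 of 8, against 21.7% of all tested, and 2 of 8 had an unadjusted p under 0.05, against 37.1%. DESeq2 passed 0 of the 8, against 5.59% of the microRNAs to which it gave an adjusted p. The median log2 fold change of the 8 was 0.05, beside 0.02 over all 525, and their median absolute change was 0.11, beside 0.22.

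miR-142a, the pan-haematopoietic hairpin, made up 6.39% to 8.63% of the reads of a library. miR-142a-5p had 53789, 56401 and 73979 CPM in the uninduced and 58028, 56226 and 76326 CPM in the induced libraries of trials 1, 2 and 3. The groups overlapped, and in both the library of trial 3 was the highest. Its log2 fold change was 0.05 (SE 0.16, 95% interval -0.30 to 0.40, edgeR adjusted p = 0.870), and with the block the interval narrowed to -0.11 to 0.21. miR-142a-3p had 8713, 10291 and 11685 CPM uninduced and 9729, 10073 and 12032 CPM induced. Both trial 1 libraries were the lowest and both trial 3 libraries the highest, and its log2 fold change was 0.05 (SE 0.13, 95% interval -0.25 to 0.35).

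mmu-miR-223-3p, the myeloid microRNA, had 8489, 6727 and 4321 CPM in the uninduced and 6711, 7181 and 2798 CPM in the induced libraries of trials 1, 2 and 3. Both trial 3 libraries lay below the other 4. Inside the trials the induced library differed from the uninduced one by -0.34, 0.09 and -0.63 on the log2 scale. The log2 fold change was -0.23 (SE 0.39, edgeR adjusted p = 0.808) with a 95% interval from -1.17 to 0.71, which still holds changes of more than 1 log2 unit downward. With the block it was -0.29 (SE 0.12, 95% interval -0.58 to -0.01), with an unadjusted p of 0.046 and an edgeR adjusted p of 0.130. miR-223-5p, the less abundant strand, had 1791, 1215 and 1698 CPM uninduced and 1482, 1285 and 1078 CPM induced, which overlap. Inside the trials its differences were -0.27, 0.08 and -0.66, close to those of the 3p strand in each trial. Its log2 fold change was -0.29 (SE 0.17, edgeR adjusted p = 0.393). When both libraries of trial 2 were left out of the blocked fit, both strands passed, with log2 fold changes of -0.49 for miR-223-3p (edgeR adjusted p = 0.015) and -0.47 for miR-223-5p (edgeR adjusted p = 0.030), against 11.0% of all tested. Neither passed when trial 1 was left out (-0.27 and -0.29, edgeR adjusted p = 0.205 and 0.202) or when trial 3 was (-0.14 and -0.11, edgeR adjusted p = 0.554 and 0.570).

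mmu-miR-126a-5p, the major arm of its hairpin in these libraries, had 551, 515 and 840 CPM uninduced and 537, 531 and 864 CPM induced. The pairs of a trial differed by at most 0.04 on the log2 scale, while trial 3 stood above trials 1 and 2 in both groups. Its log2 fold change was 0.02 (SE 0.24), with a 95% interval of -0.51 to 0.55 without and -0.16 to 0.19 with the block. miR-126a-3p, the strand best known from endothelium, had 71.7, 73.0 and 80.4 CPM uninduced and 70.8, 74.3 and 86.5 CPM induced, with a log2 fold change of 0.04 (SE 0.14).

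mmu-miR-150-5p, the lymphocyte microRNA, had 26.4, 44.9 and 25.4 CPM uninduced and 37.6, 38.6 and 32.0 CPM induced. The uninduced library of trial 2 was the highest of all 6, the groups overlapped, and the log2 fold change was 0.16 (SE 0.23, edgeR adjusted p = 0.726). miR-486a-5p had 32.0, 22.7 and 36.2 CPM uninduced and 38.1, 40.0 and 37.2 CPM induced. It was the 1 member of the 8 whose groups did not overlap, against 27.6% of all tested microRNAs, and the 1 that was higher in the induced library of all 3 trials, against 29.0%. Lower in all 3 trials were 0 of the 8, against 29.5%. The differences inside the trials were 0.25, 0.82 and 0.04, and trial 2, with its low uninduced library, had the largest of the 3. The log2 fold change was 0.34 (SE 0.18, edgeR adjusted p = 0.326), and 0.35 (SE 0.14, edgeR adjusted p = 0.092) with the block. When both libraries of trial 1 were left out, the blocked fit passed it with a log2 fold change of 0.41 (edgeR adjusted p = 0.039), against 12.4% of all tested. It did not pass without trial 2 (0.14, edgeR adjusted p = 0.522) or without trial 3 (0.51, edgeR adjusted p = 0.191, against 2.32% of all tested). Without the uninduced library of trial 2 alone, the fit on the group gave 0.18.

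**Figure D2:**
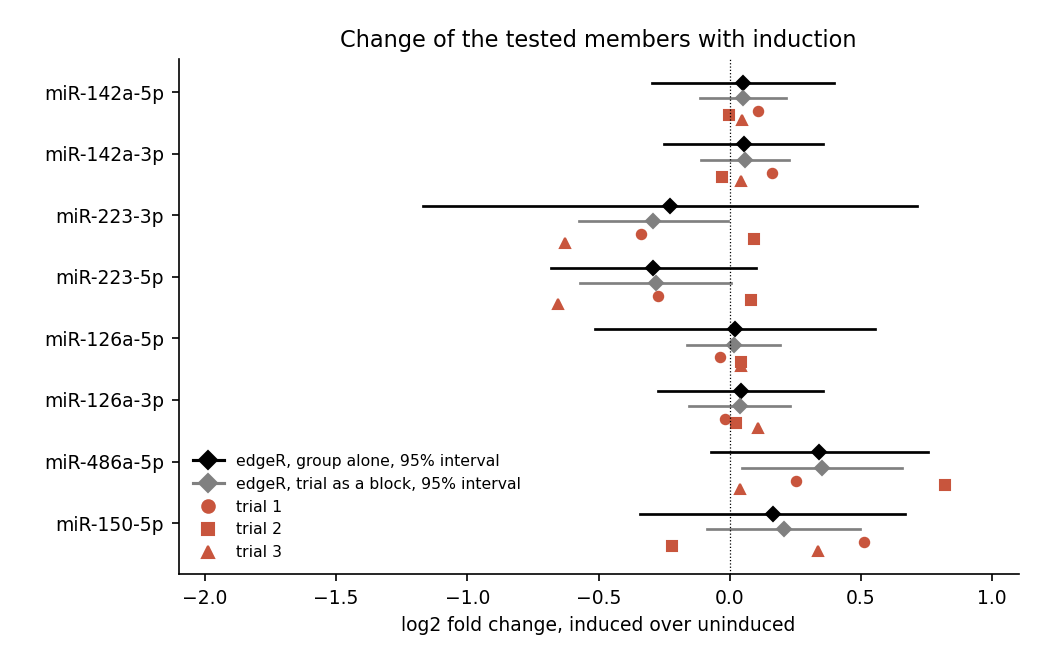
Log2 fold change, induced over uninduced, of the 8 tested measurements, from edgeR with the group alone (black) and with the trial as a block (grey), with 95% intervals, and the difference inside each trial (red symbols). All black intervals include 0, and the black interval of miR-223-3p, from -1.17 to 0.71, is the widest of the 8. The grey intervals of miR-223-3p (-0.58 to -0.01) and miR-486a-5p (0.05 to 0.66) exclude 0, and neither passed after adjustment.

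More of these microRNAs were called between trials than for induction. In the model with trial and group, edgeR's test of the 2 trial terms passed 4 of the 8 measurements, miR-142a-5p, miR-142a-3p, miR-126a-5p and miR-223-3p, against 21.7% of all tested microRNAs. Relative to trial 1, trial 3 was higher by 0.65 on the log2 scale for miR-126a-5p (edgeR adjusted p = 0.0012), by 0.43 for miR-142a-5p (edgeR adjusted p = 0.0095) and by 0.36 for miR-142a-3p (edgeR adjusted p = 0.040). miR-223-3p went the other way, with trial 3 at -1.11 relative to trial 1 (edgeR adjusted p = 0.0034). For these 4 and for miR-126a-3p both trial 3 libraries lay outside the range of the other 4 libraries, against 27.2% of all tested microRNAs. Trial 2 differed from trial 1 by -0.11 to 0.14 for the 4 called. miR-150-5p was highest in trial 2 (0.40 above trial 1, edgeR adjusted p = 0.062). miR-223-5p and miR-486a-5p did not pass, with edgeR adjusted p of 0.225 and 0.501, although without a filter on low counts miR-223-5p passed at 0.026 and miR-150-5p at 0.0033.

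All 4 were lost when the uninduced or induced library of trial 2, or the uninduced or induced library of trial 3, was left out, and when the group term was dropped, which passed 0 of 525 microRNAs. The loss was not particular to them: over all microRNAs tested, 0 of 553 and 0 of 545 passed without the uninduced and induced library of trial 2, and 4 of 523 and 1 of 522 without those of trial 3. Without either trial 1 library, miR-142a-3p lost the call, the other 3 passed and miR-150-5p passed as well. DESeq2's likelihood ratio test passed the same 4, against 18.2% of the microRNAs to which it gave an adjusted p. What the trials stand for is not stated, so culture, RNA extraction, library preparation and sequencing cannot be told apart. The 3 trials also differ in depth: the trial 3 library had the most reads in each group.

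**Figure D3:**
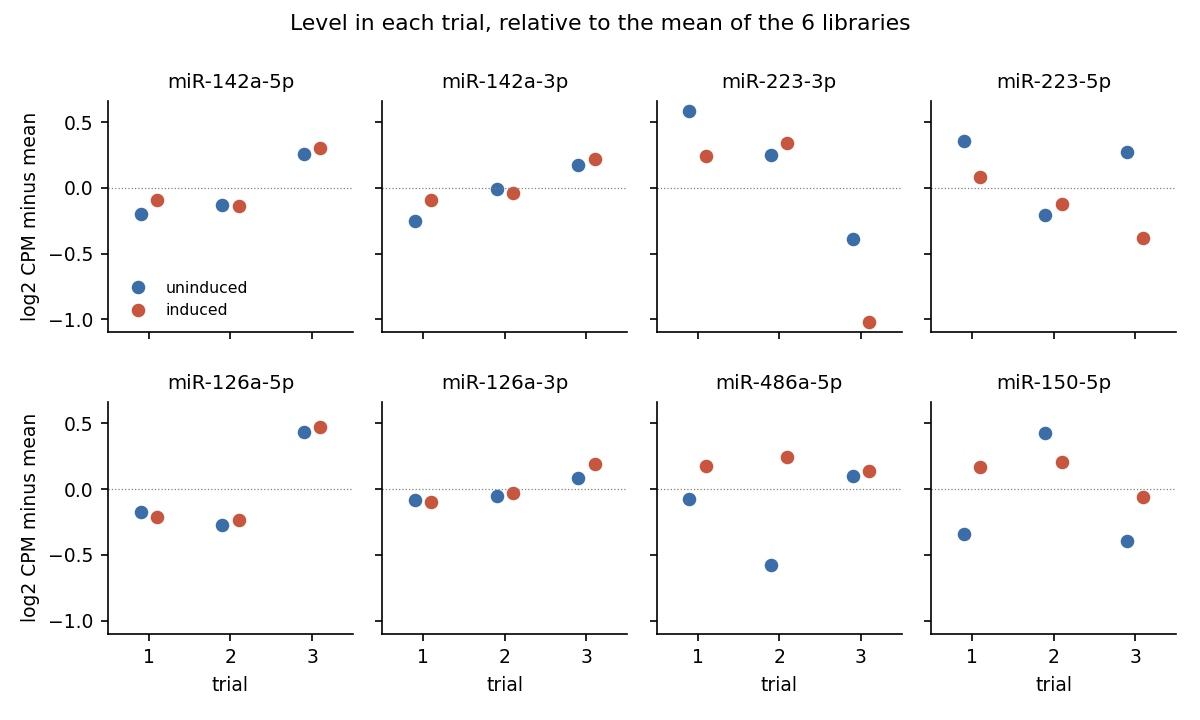
Log2 CPM of the 8 tested measurements in each trial, minus the mean of the 6 libraries, for uninduced (blue) and induced (red) libraries. Trial 3 is above trials 1 and 2 for both arms of miR-142a and of miR-126a and below them for miR-223-3p, in both groups.

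The ratio of the hairpin totals of miR-142a and miR-223 ranged widely. There were 6.08, 8.40 and 14.2 miR-142a reads per miR-223 read in the uninduced libraries of trials 1, 2 and 3, and 8.27, 7.83 and 22.8 in the induced ones. The groups overlapped, and the highest value of each group was that of trial 3. Within groups, the log2 CPM of miR-223-3p had an SD of 0.64, against a median of 0.19 over the 323 tested microRNAs of at least 10 CPM, of which 1.55% varied more. The SD was 0.39 for miR-126a-5p, 0.34 for miR-150-5p, 0.27 for miR-223-5p, 0.25 for both miR-142a-5p and miR-486a-5p, 0.19 for miR-142a-3p and 0.12 for miR-126a-3p.

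The strand that prevailed differed between the hairpins. miR-223 was read mostly from its 3p strand: the 5p strand, with the seed GUGUAUU, held 20.3% ± 6.92 of the hairpin's reads uninduced and 20.4% ± 6.61 induced (SD, n = 3 each). In miR-142a the 5p strand held 85.7% ± 0.96 and 85.6% ± 0.79, and in miR-126a 89.1% ± 1.92 and 89.0% ± 1.69 (SD, n = 3 each, uninduced and induced). In miR-150 and miR-486a the 3p strand was rare, at 19 of 2180 reads or 0.87% (95% exact interval 0.53% to 1.36%) and at 2 of 2223 reads or 0.09% (95% exact interval 0.01% to 0.32%). For miR-144 the 7 reads were all from the 5p strand. miR-451a has a single mature name in the table, so no arm ratio exists for it.

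For the 3 hairpins with at least 10 reads per arm on average, the log2 ratio of 5p to 3p reads was the same in induced and uninduced cells to within a few hundredths. The difference was 0.01 for miR-223, -0.01 for miR-142a and -0.02 for miR-126a, with exact permutation p of 1.0, 1.0 and 0.80 (two-sided, 3 against 3, adjusted p = 1.0 for each; the smallest p this design allows is 0.10). In limma's fit over all 150 such hairpins with trial and group, the 95% interval of the difference was -0.11 to 0.13 for miR-223, -0.07 to 0.06 for miR-142a and -0.23 to 0.19 for miR-126a. That fit passed 5.33% of all hairpins for induction and none of these 3.

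Between trials the ratio moved. There were 4.74, 5.54 and 2.55 miR-223-3p reads per miR-223-5p read in the uninduced libraries of trials 1, 2 and 3, and 4.53, 5.59 and 2.60 in the induced ones. Both trial 3 libraries thus had about the same ratio, and it was lower than in the other 4. For miR-126a there were 7.68, 7.05 and 10.4 reads of the 5p strand per 3p read uninduced and 7.57, 7.14 and 9.99 induced, again with trial 3 apart. For miR-142a these were 6.17, 5.48 and 6.33 uninduced and 5.96, 5.58 and 6.34 induced, with trial 2 the lowest.

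limma's test of the trial terms, chosen after these values were seen, passed all 3 hairpins, against 44.7% of the 150. The limma adjusted p was 9.5e-13 for miR-223, the smallest of all 150, 4.5e-04 for miR-142a and 0.0024 for miR-126a. The shift of miR-223 was not the largest: 13 of the 150 hairpins had a larger absolute difference between trials 3 and 1. By its range over the 6 libraries miR-223 had rank 39. When the variance was not allowed to depend on abundance, miR-223 alone of the 3 passed, with a limma adjusted p of 0.034, beside 0.395 for miR-142a and 0.067 for miR-126a. Leaving out any single library kept miR-223 past the threshold, in limma fits with the variance trend. At most 1 of the other 2 hairpins was lost in any such fit, with limma adjusted p up to 0.180 for miR-142a and 0.140 for miR-126a. The share of all 150 hairpins that passed these fits, or the fit without the trend, is not given here. Their calls thus have no background beside them. Induced and uninduced libraries of a trial differed by at most 0.07, 0.05 and 0.06 in the log2 ratio of miR-223, miR-142a and miR-126a, against a median largest difference of 0.38 over the 150 hairpins. The range of miR-223 over the 6 libraries, 1.13 log2 units, was in turn above the median of 0.83, and those of miR-126a (0.57) and miR-142a (0.21) were below it.

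**Figure D4:**
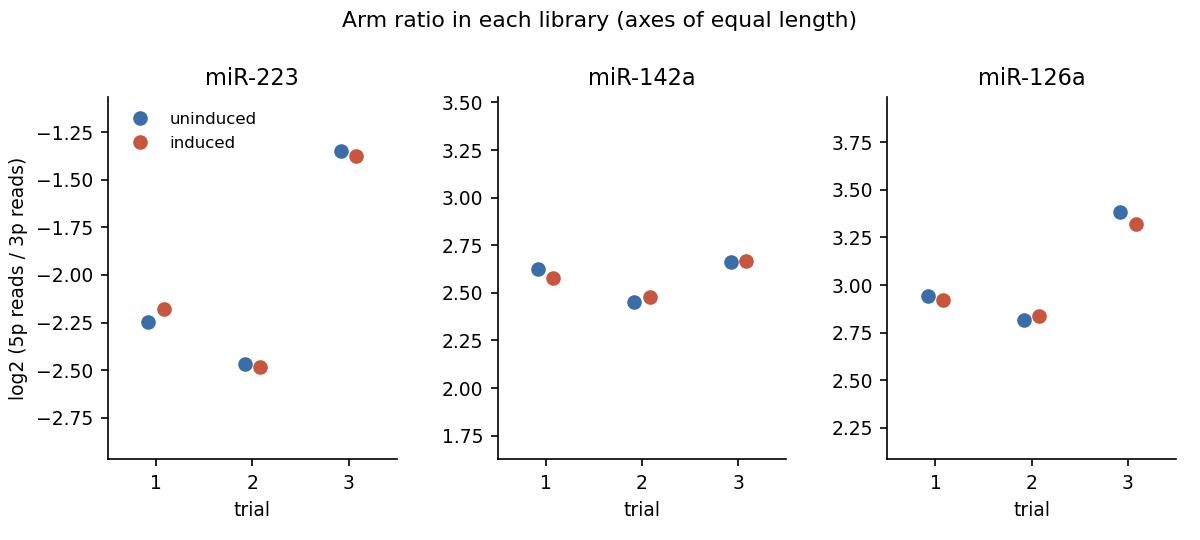
Log2 ratio of 5p to 3p reads of miR-223, miR-142a and miR-126a in each library, by trial, for uninduced (blue) and induced (red) libraries, on axes of equal length. The libraries of a trial differ by at most 0.07, while miR-223 spans 1.13 log2 units between trials.

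Entries for hairpins on the opposite strand of the same loci were also read. miR-142b, listed on the minus strand opposite miR-142a, had 17.3, 17.8 and 22.8 CPM uninduced and 14.1, 14.8 and 21.2 CPM induced (log2 fold change -0.20, SE 0.21, edgeR adjusted p = 0.646). Inside the trials the induced library differed from the uninduced one by -0.29, -0.26 and -0.10 on the log2 scale. It was thus lower in all 3, as were 29.5% of all tested microRNAs. With the block its log2 fold change was -0.21 (SE 0.11, edgeR adjusted p = 0.181). Per 10000 reads of miR-142a-5p there were 3.22, 3.15 and 3.08 reads of miR-142b uninduced and 2.43, 2.63 and 2.78 induced. The groups did not overlap in this ratio. Per 10000 reads of miR-142a-3p, the arm opposite it, there were 19.8, 17.3 and 19.5 reads of miR-142b uninduced. Induced there were 14.5, 14.7 and 17.6, and here the groups overlapped. Neither ratio was tested, and neither has a share over all microRNAs to stand beside it. The sequences are shown because they nearly match, with capitals at the bases that differ over the aligned stretch.
miR-142a-5p: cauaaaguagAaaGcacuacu
miR-142b: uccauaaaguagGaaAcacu
Over the 18 aligned bases 16 are identical, and the differences, counted from the 5′ end of miR-142a-5p, are A11G and G14A. Whether counting used strand is not stated. By position miR-142b (chr11:87756906-87756925, minus strand) lies within miR-142a-3p (chr11:87756903-87756925, plus strand), and its counts were far below those of that arm, as given above. Whether some miR-142b reads came from miR-142a-3p or miR-142a-5p was not tested. miR-126b-3p had 5, 2 and 4 reads in the uninduced and 8, 7 and 16 reads in the induced libraries of trials 1, 2 and 3. Pooled, 11 reads uninduced and 31 induced gave a ratio of 2.42 per total (95% exact interval 1.18 to 5.34). That interval covers counting error only, not the spread between libraries, and miR-126b-3p did not pass the filter for testing. miR-126b-5p had 8 reads in all, and miR-451b had 0.

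Other microRNAs had library profiles like those of these members. By the root mean square difference of mean-centred log2 CPM over the 6 libraries, the closest of 314 others to miR-142a-5p were miR-340-3p (0.04), miR-669b-5p (0.06) and miR-148b-3p (0.07), against a median of 0.27. For miR-126a-5p they were miR-3964 (0.08), miR-421-3p (0.09) and miR-3098-5p (0.12), against 0.37. For miR-223-3p they were miR-345-5p (0.22), let-7e-5p (0.26) and let-7i-3p (0.26), against 0.58. For miR-150-5p they were miR-339-5p (0.14), miR-1839-5p (0.16) and miR-1187 (0.19), against 0.36. The libraries share trial and depth, so these are descriptions only.

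Other microRNAs of the blood lineages were counted from 4 lists. Of 18 granulocyte and monocyte microRNAs, all tested, 4 rose and 0 fell, beside 3.43% higher and 2.67% lower over all tested. The median log2 change of the 18 was 0.16, beside 0.02 over all tested. The 4, miR-342-3p, miR-342-5p, miR-511-3p and miR-511-5p, are arms of 2 hairpins, so their calls are not separate results. They had log2 fold changes of 8.73, 6.81, 6.36 and 5.42, from only 671, 45, 321 and 68 reads over all libraries. Those reads lay almost wholly in the induced libraries. The list was chosen with earlier results of these data known, so its count is a description only. The 2 most abundant of the 18, miR-146b-5p (144772 CPM, log2 fold change 0.04) and miR-22-3p (40895 CPM, 0.28), did not pass. With the trial as a block 8 passed, all higher, miR-22-3p among them, beside 10.7% higher and 11.0% lower over all tested. Of 10 lymphoid microRNAs edgeR passed 0 without and 3 with the block (2 higher and 1 lower, beside 21.7% of all tested in either direction), with a median of -0.07, and the most abundant were miR-181a-5p (28915 CPM, -0.29) and miR-181b-5p (6184 CPM, -0.14). Of 12 erythroid and megakaryocyte microRNAs, all tested, 1 fell, miR-210-3p (-0.81, SE 0.13), the hypoxia microRNA, beside 2.67% lower over all tested. With the block 4 passed, 2 higher and 2 lower, beside 10.7% higher and 11.0% lower over all tested. The median log2 change of this list was 0.13. Its most abundant members, miR-16-5p (45422 CPM, 0.17) and miR-182-5p (6720 CPM, 0.27), did not pass without the block, and miR-182-5p passed with it. Of 12 stem and progenitor microRNAs 8 were tested and 1 fell, miR-10b-5p (-2.22, SE 0.16), from the Hoxd locus, while miR-99b-5p (1504 CPM, 0.43) and miR-125a-5p (457 CPM, 0.51) did not pass. With the block 3 of the 8 passed, 2 lower and 1 higher, the latter being miR-125a-5p. Over all tested 11.0% were lower and 10.7% higher with the block. The median log2 change of the 8 was -0.18.

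Summed over the 14 measurements, the members held 7.40% to 9.11% of the reads of a library, of which the arms of miR-142a made up 85.1% to 94.7%. In uninduced cells the sum was 80473 CPM ± 10598 (SD, n = 3), and in induced cells it was 81780 CPM ± 9956 (SD, n = 3), with an exact permutation p of 0.50 (two-sided), and the difference of 1306 CPM was smaller than the spread of the groups. Paired by trial, the induced library was higher in all 3 trials, at 76635 over 73465, 75449 over 75290 and 93255 over 92665 CPM, with an exact sign-flip permutation p of 0.25, the smallest that 3 pairs allow. With DESeq2's size factors the mean difference was -202 CPM.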

How the data were processed

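Small RNA libraries from 3 uninduced and 3 induced samples were analysed. Per the labels' protocols, RNA was purified with miRNeasy and libraries were made with the TruSeq small RNA kit, size-selected and read on a HiSeq. The file headers show that the authors deposited raw counts for each library. The deposited CPM values equal the counts over the sum of all entries within 0.005 and were used only for that check. Trim Galore 0.4.0, DESeq2 (listed as 2.1.8.0) and mm10 are named per the submitters' processing notes, and miRBase in the series' design text. Counter, miRBase release, strand and multiple matches: not given in the sources used here. For the 83 names with several entries the highest was kept, which left out 17.5% of reads. Each member has 1 entry. Libraries of a group always differed by more than sampling noise (lowest chi-square over its degrees of freedom 115).

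edgeR 4.0.16 in R 4.3.3 was run on the whole table (TMM, filterByExpr, robust quasi-likelihood fit, Benjamini-Hochberg over 525 microRNAs), and the tests across features were tested on simulated data. On simulated arm ratios whose spread also differed from hairpin to hairpin, limma with a variance trend made more false calls than its nominal rate, so counts of hairpins called between trials may be somewhat high. Arm ratios used a prior count of 0.5, exact permutation tests (SciPy 1.17.1) and limma 3.58.1 over all hairpins. Members and lists were chosen with earlier results of these data known. Named microRNAs are all members, antisense entries, the 3 nearest profiles of at least 10 CPM, and in each list those that passed or were the 2 most abundant. After group means were subtracted, libraries of the same trial correlated by 0.40, 0.53 and 0.58 across microRNAs, each over 0.1, so the trials pair the libraries, and a fit with the trial as a replicate block was the alternative. Other alternatives were DESeq2 1.42.0, its size factors, no filter, other entry rules and leaving out libraries.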

Additional observations from a re-analysis of the deposited data

How the results depend on the processing

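Under DESeq2's size factors, no filter, DESeq2, the other entry rules, the replicate block and each library left out, 0 members were called for induction, and leaving whole trials out of the blocked fit called 1, 2 and 0 without trials 1, 2 and 3. The replicate block changed no call of a member. Between trials, 0 members were called without the group term, against 0 of 525 microRNAs, and 0 to 4 with 1 library left out. The 4 without the uninduced or induced library of trial 1 stood against 104 of 554 and 92 of 524. Without a filter 6 of 13 were called (miR-150-5p and miR-223-5p added), against 148 of 1147. With DESeq2's size factors 5 of 8 were called (miR-150-5p added, adjusted p 0.049 in edgeR), against 111 of 525. With the lowest entry 3 of 8 were called (miR-142a-3p lost, adjusted p 0.051 in edgeR), against 102 of 525. Of the 3 arm ratios, 1 was called between trials without the variance trend and 2 to 3 with 1 library left out. The share over all 150 hairpins in those fits is not given here, and in the main limma fit it was 44.7%. With the replicate block the granulocyte, lymphoid, erythroid and stem lists had 8, 3, 4 and 3 calls. These were among 18, 10, 12 and 8 tested, against 21.7% of all tested microRNAs. With 1 library left out the 4 lists had 4 to 6, 0 to 1 (1 without induced trial 3), 1 to 2 (2 without uninduced trial 3) and 1 to 2 (2 without uninduced trial 3). Those fits passed from 12 of 554 to 41 of 523 of all tested microRNAs. With whole trials left out of the blocked fit, the granulocyte list had 1 call without trial 3, the lymphoid 1 and 2 without trials 1 and 2, the erythroid 2, 3 and 0, and the stem list 3 without trial 1. Without trials 1, 2 and 3 these fits passed 12.4%, 11.0% and 2.32% of all tested. Without a filter the lymphoid list had 1 and the erythroid 2, as it had with DESeq2. Over all microRNAs 48 of 1147 passed without a filter and 38 of 680 with DESeq2. The summed CPM difference was -202 with DESeq2's size factors and -4431 to 7402 with 1 library left out.

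Small changes reversed sign. The log2 fold change of miR-126a-5p was -0.00609 with DESeq2, and in the blocked fit -0.00266 and -0.0114 without trials 2 and 3, where that of miR-126a-3p was -0.0103 without trial 3. With 1 library left out the ranges were -0.0857 to 0.11 for miR-126a-3p, -0.29 to 0.28 for miR-126a-5p, -0.0840 to 0.16 for miR-142a-3p, -0.14 to 0.21 for miR-142a-5p and -0.47 to 0.0542 for miR-223-3p. Without a change of sign they were 0.0092 to 0.49 for miR-150-5p, 0.18 to 0.48 for miR-486a-5p and -0.44 to -0.20 for miR-223-5p. For the arm ratios they were -0.31 to 0.34 (miR-223), -0.0701 to 0.0399 (miR-142a) and -0.17 to 0.15 (miR-126a). The cause of these changes was not tested. The ratio of miR-451a to miR-144-3p was not run, as miR-144-3p had 0 reads.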
